A study of Mus musculus with 6 samples.

Results

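The genes described here are 10 genes of the limb fields, Tbx5, Tbx4, Pitx1, Fgf10, Hand2, Prrx1, Prrx2, Lhx9, Tbx2 and Tbx3, chosen by name and read from every gene probe annotated to them. They are 10 of 18679 named genes on the array and had 12 of its 34967 gene probes, 3 for Tbx3 and 1 for each of the other 9. The tissue was the part of mouse embryos at E9.5 that lies directly behind the forelimb bud. The material was 3 samples of Fkbp8 mutants (a, b and c) and 3 samples of wildtypes (d, e and f), the offspring of crosses between heterozygous carriers. The labels do not describe the Fkbp8 allele, give no strain or treatment, and name mutant a as embryos in the plural, so whether that sample was a pool is not settled. Every sample had a 1-colour CodeLink Mouse Whole Genome array to itself. Since the cut lies at the hind edge of the forelimb bud, forelimb and hindlimb genes together bear on whether mutant and wildtype tissue was cut at the same level.

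The forelimb and hindlimb arise from lateral plate mesoderm at different axial levels. Tbx5, a T-box transcription factor, marks the forelimb field and starts forelimb outgrowth, whereas Pitx1, a homeodomain factor, and Tbx4, the closest T-box relative of Tbx5, mark the hindlimb field. Both routes meet at Fgf10, the mesenchymal growth factor that sets up signalling with the overlying ectoderm. Hand2 acts in the posterior limb mesenchyme upstream of Shh, Prrx1 and Prrx2 are homeodomain factors of limb and facial mesenchyme, Lhx9 is a LIM homeodomain factor of the limb bud, and Tbx2 and Tbx3 are repressors made at the limb margins and in the flank. Several of these genes have other sites. Tbx5, Tbx2, Tbx3 and Hand2 are also made in the heart, Pitx1 and Hand2 in the first arch, and Tbx4 in the allantois and lung. In whole tissue, fewer cells of a type and less RNA per cell cannot be told apart.

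In the mouse, Tbx5 is known to act on Fgf10 and Pitx1 on Tbx4, so the bases upstream of these target genes are shown. They are 250 bases before an annotated start, from RefSeq on GRCm38.p6, 5′ to 3′ on the strand of the gene. Fgf10 lies at chr13:118714449-118714698 on the plus strand and Tbx4 at chr11:85896515-85896764 on the plus strand. Capitals mark matches on either strand to the core site of T-box factors (TCACAC), the site of bicoid-type homeodomain factors such as Pitx1 (TAATCC), the core promoter element TATAAA and the Sp1-type box GGGCGG. No matches overlapped.
Fgf10: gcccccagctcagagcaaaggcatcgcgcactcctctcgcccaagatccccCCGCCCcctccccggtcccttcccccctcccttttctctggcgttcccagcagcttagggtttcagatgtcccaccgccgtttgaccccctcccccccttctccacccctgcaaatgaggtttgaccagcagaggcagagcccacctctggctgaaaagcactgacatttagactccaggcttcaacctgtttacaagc
Tbx4: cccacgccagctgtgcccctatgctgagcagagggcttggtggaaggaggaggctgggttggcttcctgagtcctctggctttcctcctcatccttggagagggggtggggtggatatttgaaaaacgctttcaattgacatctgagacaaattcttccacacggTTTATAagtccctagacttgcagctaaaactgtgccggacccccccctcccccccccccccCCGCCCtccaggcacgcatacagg
The Fgf10 window held 1 match to the Sp1-type box, and the Tbx4 window held 1 match to the core promoter letters and 1 to the Sp1-type box. All of these matches were on the strand opposite to the gene. The Tbx4 window thus had no TATAAA in the direction of the gene. Neither window held the T-box core or the bicoid-type site. Of all 32851 windows of this length, 12.3% held the T-box core, 6.25% the bicoid-type site, 12.4% the core promoter element and 32.7% the Sp1-type box. These matches are a description of the letters, and the arrays did not measure binding. The promoter table held 6 of the 10 genes. In the gene order of the same assembly, 0 other protein-coding genes lie between Tbx5 and Tbx3 on chromosome 5, and 0 between Tbx4 and Tbx2 on chromosome 11.

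The values below are log2 intensities after background correction and normalization, and a probe is called above background where the scanner software marked its spot as good or saturated. Between 20144 and 21612 gene probes were above background on each array, fewest on mutant c. Fkbp8 itself had 6.28, 6.30 and 6.11 in mutants a, b and c (0 of 3 above background), against 10.57, 10.74 and 10.67 in wildtypes d, e and f. It was at least 18.8-fold lower in mutants, the bound being set by the lowest probe above background on each mutant array (limma adjusted p = 1.18e-07). The Y-linked Eif2s3y was detected above background in 3 of 3 mutants and 0 of 3 wildtypes, and the brighter probe of Xist, the RNA of the inactive X chromosome, in 0 of 3 mutants and 3 of 3 wildtypes. Genotype and sex-linked expression therefore cannot be told apart in any comparison here. Of the 21688 probes tested across the array, 26 (0.12%) passed an adjusted p of 0.05, 2654 (12.2%) had an unadjusted p under 0.05, and for 4283 (19.7%) the groups did not overlap. The count of 26 was 11 when mutant b, wildtype d or wildtype f was left out, and 14 when wildtype e was. The median standard deviation over 3 arrays was 0.11 in mutants and 0.09 in wildtypes.

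No limb field gene was called different between mutant and wildtype tissue. With 3 arrays in each group, this does not show that levels were equal. Both hindlimb genes, the forelimb gene Tbx5, Fgf10, Prrx1, Prrx2, Tbx2 and all 3 probes of Tbx3 were above background on all 6 arrays, and Hand2 and Lhx9 on none. Of the 10 probes tested, for 8 genes, 0 passed an adjusted p of 0.05 in limma, where 0.12% of all probes did. At an unadjusted p under 0.05 there was 1 probe, for Tbx3, and the groups did not overlap for 2, for Tbx2 and Tbx3, against 12.2% and 19.7% of all probes. The log2 fold changes of the 10 probes (mutant minus wildtype) ran from -0.16 for Prrx1 to 0.34 for Tbx3, with a median of 0.05 against 0.01 over all probes tested. Of the 10, 8 were higher in mutants, some of them by values near 0 and 3 of them probes of Tbx3, against 52.4% of all probes. These p-values set the difference between the groups against the spread of samples within a group, which limma moderates over all probes tested. The plot of the 12 probes by array shows the values that follow.

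**Figure D1:**
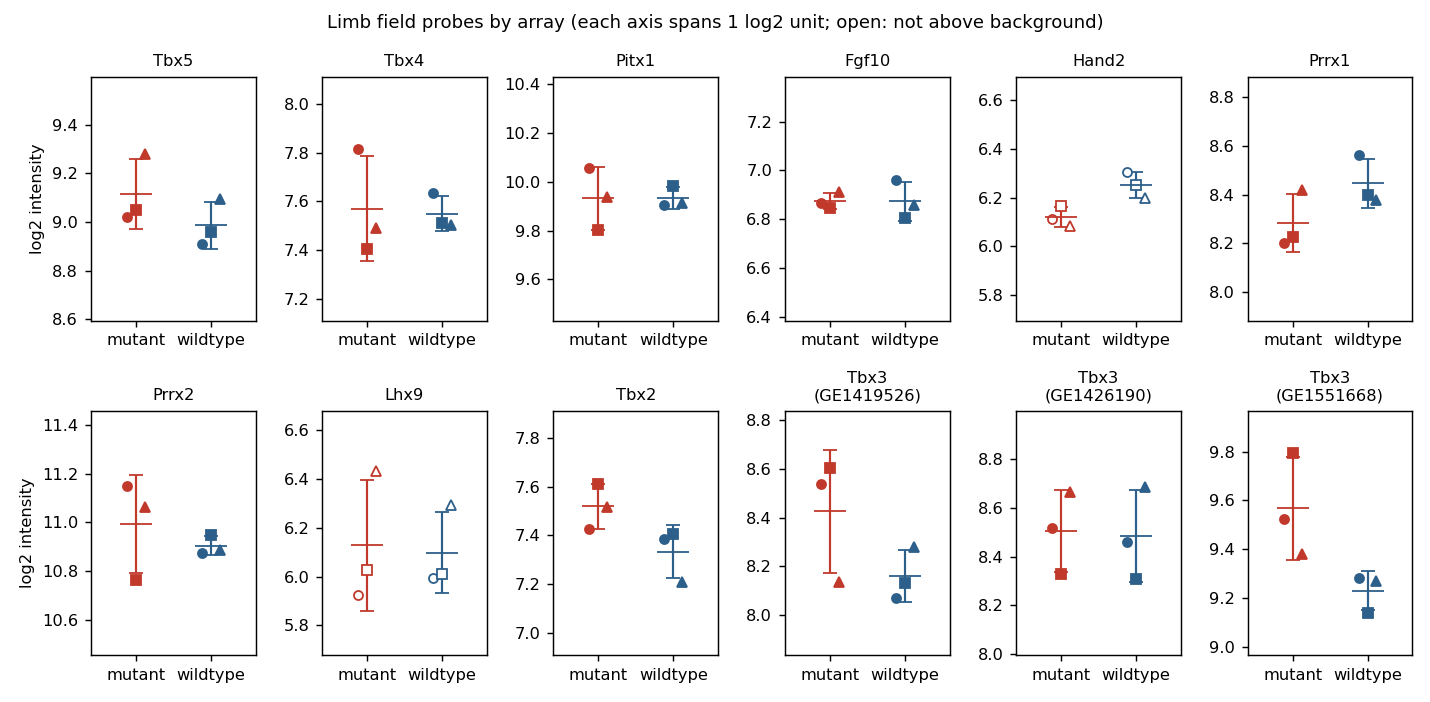
Log2 intensity (vertical axis) of each limb field probe in mutants (left, red; circle a, square b, triangle c) and wildtypes (right, blue; circle d, square e, triangle f); horizontal bars are means, error bars standard deviations of 3 arrays, and every vertical axis spans 1 log2 unit. The groups overlap for all tested probes but Tbx2 and the Tbx3 probe GE1551668, and the open symbols of Hand2 and Lhx9 were not above background on any array.

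Tbx5, the forelimb gene, was measured on every array although the tissue began behind the bud. It had log2 intensities of 9.02, 9.05 and 9.28 in mutants a, b and c, against 8.91, 8.96 and 9.10 in wildtypes d, e and f. Mutant c was highest, and mutants a and b lay within the wildtype range. The means were 9.12 ± 0.14 in mutants and 8.99 ± 0.10 in wildtypes (SD, n = 3 each), a log2 fold change of 0.13 (SE 0.10, 95% interval -0.09 to 0.35, limma adjusted p = 0.613).

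The hindlimb genes gave means that were closer still. Pitx1, which specifies hindlimb character, had 10.06, 9.80 and 9.94 in mutants a, b and c, against 9.90, 9.98 and 9.91 in wildtypes d, e and f. Mutants a and b lay on either side of all 3 wildtypes. The log2 fold change was -0.0020 (SE 0.09, 95% interval -0.20 to 0.19, limma adjusted p = 0.994). Tbx4, the T-box factor of the hindlimb field, had 7.81, 7.40 and 7.49 in mutants a, b and c, against 7.63, 7.51 and 7.50 in wildtypes d, e and f. Again mutant a was the highest and mutant b the lowest of the 6 samples. The means were 7.57 ± 0.22 in mutants and 7.55 ± 0.07 in wildtypes (SD, n = 3 each), a log2 fold change of 0.02 (SE 0.11, 95% interval -0.24 to 0.28, limma adjusted p = 0.959).

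To set the forelimb against the hindlimb genes within an array, each probe was taken relative to its own wildtype mean, and the mean shift of Tbx4 and Pitx1 was subtracted from the shift of Tbx5. The result was -0.16, 0.20 and 0.32 in mutants a, b and c, against -0.11, -0.04 and 0.14 in wildtypes d, e and f, on the log2 scale. Mutant a was the lowest and mutant c the highest of the 6 samples, and mutant b also lay above the wildtypes. The mean of the mutants was 0.12 with a standard deviation of 0.25, and the standard deviation of the wildtypes, whose mean is 0 by construction, was 0.13. The shift in mutants was thus smaller than the spread among them. It was 0.26 without mutant a and 0.02 without mutant c. No p-value is given for this value, since the genes were chosen with earlier results of these arrays known.

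**Figure D2:**
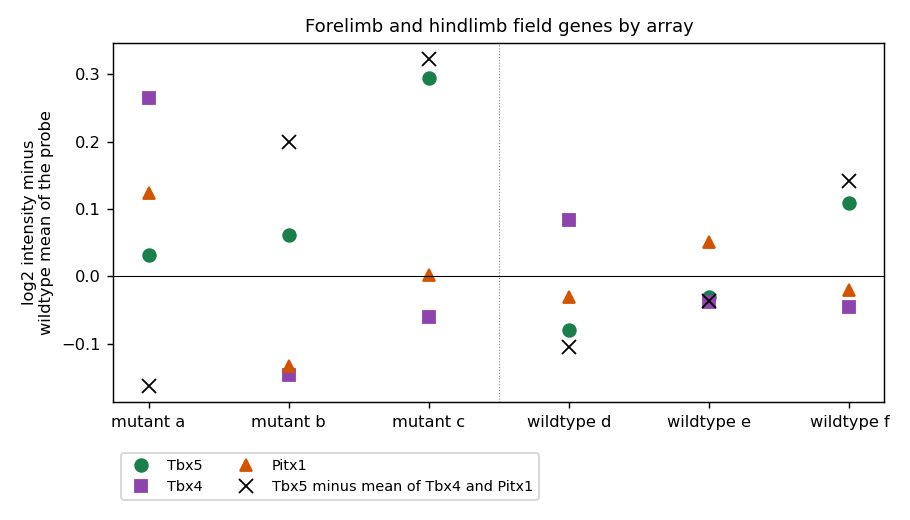
Log2 intensity of Tbx5, Tbx4 and Pitx1 minus the wildtype mean of each probe (vertical axis), for each of the 6 arrays (mutants left of the dotted line, wildtypes right); crosses give Tbx5 minus the mean of Tbx4 and Pitx1. The crosses run from -0.16 to 0.32 in mutants and from -0.11 to 0.14 in wildtypes, and the ranges overlap.

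Fgf10, the growth factor downstream of both fields, was dim and even across the samples. It had 6.87, 6.85 and 6.91 in mutants a, b and c, against 6.96, 6.80 and 6.86 in wildtypes d, e and f. All 3 mutants lay within the wildtype range, and the log2 fold change was 0.0014 (SE 0.08, 95% interval -0.17 to 0.17, limma adjusted p = 0.995). The background offset makes the fold changes of dim probes such as this one smaller than they are.

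The paired-related homeobox genes had differences of opposite sign, and neither passed the test. Prrx1 had 8.20, 8.23 and 8.42 in mutants a, b and c, against 8.56, 8.40 and 8.38 in wildtypes d, e and f. Mutants a and b lay below every wildtype and mutant c lay among them, with a log2 fold change of -0.16 (SE 0.09, 95% interval -0.37 to 0.04, limma adjusted p = 0.501). Prrx2 had 11.15, 10.76 and 11.07 in mutants a, b and c, against 10.88, 10.95 and 10.89 in wildtypes d, e and f. The mutants lay on both sides of the wildtypes, with a standard deviation of 0.20 against 0.04, and the log2 fold change was 0.09 (SE 0.11, 95% interval -0.15 to 0.33, limma adjusted p = 0.767). Prrx2, Pitx1 and Tbx4 shared the order of the mutants, with a highest, c next and b lowest. This order was picked out after the values were seen, and its share over all probes was not counted. Of genes named from the lists below, Msx1 of limb mesenchyme, Fgf9 of limb ectoderm and Hoxb8 had it too, so the order was not particular to the limb field genes. Of the 10 tested probes, 7 had a larger standard deviation in mutants than in wildtypes, as did 60.7% of all tested probes.

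Tbx2 and Tbx3, the repressors of limb margin and flank, had the highest positive differences of the 10 genes, and neither passed the test. Tbx2 had 7.43, 7.61 and 7.52 in mutants a, b and c, against 7.39, 7.40 and 7.21 in wildtypes d, e and f. All 3 mutants lay above all 3 wildtypes, and the log2 fold change was 0.19 (SE 0.09, 95% interval -0.01 to 0.38, limma unadjusted p = 0.0643, adjusted p = 0.433).

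Tbx3 was read by probes that did not give the same difference. The brightest, GE1551668, had 9.53, 9.79 and 9.38 in mutants a, b and c, against 9.28, 9.14 and 9.27 in wildtypes d, e and f. All 3 mutants lay above all 3 wildtypes, with means of 9.57 ± 0.21 in mutants and 9.23 ± 0.08 in wildtypes (SD, n = 3 each). The log2 fold change was 0.34 (SE 0.11, 1.26-fold, unadjusted 95% interval 0.08 to 0.59), with a limma unadjusted p of 0.0153 and an adjusted p of 0.311. By exact permutation of the samples (two-sided) p was 0.1, the smallest that 3 against 3 allows. GE1419526, whose RefSeq accession on the array is the same, had 8.54, 8.60 and 8.14 in mutants a, b and c, against 8.07, 8.13 and 8.28 in wildtypes d, e and f. Here mutant c lay among the wildtypes, and the log2 fold change was 0.26 (SE 0.13, limma adjusted p = 0.444). GE1426190, whose accession is a cDNA clone annotated to the gene, had 8.52, 8.33 and 8.67 in mutants a, b and c, against 8.46, 8.31 and 8.68 in wildtypes d, e and f, a log2 fold change of 0.02 (SE 0.12, 95% interval -0.25 to 0.29, limma adjusted p = 0.963). The sequence and strand of the probes are not given in the sources used here, so which transcripts each one reads was not tested.

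**Figure D3:**
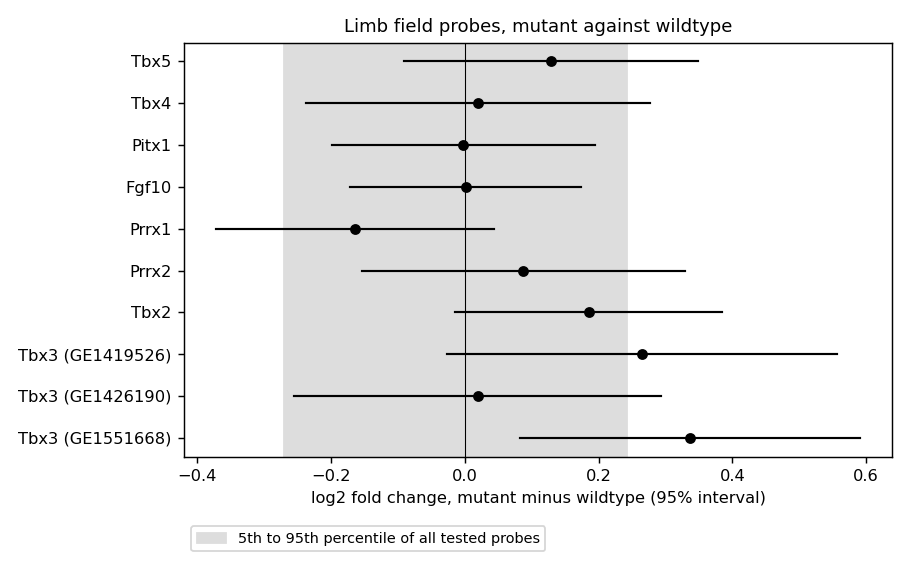
Log2 fold change, mutant minus wildtype (horizontal axis), of the 10 tested limb field probes, with unadjusted 95% intervals from limma; the grey band spans the 5th to 95th percentile of all 21688 tested probes (-0.27 to 0.24). The interval excludes 0 for the Tbx3 probe GE1551668 alone, and that probe and GE1419526 lie above the band.

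Hand2 and Lhx9 could not be compared as levels. Hand2 had 6.11, 6.16 and 6.09 in mutants a, b and c, against 6.30, 6.25 and 6.20 in wildtypes d, e and f. The mutant values lay below those of every wildtype, but no array had the probe above background, so no fold is given. Lhx9 had 5.92, 6.03 and 6.43 in mutants a, b and c, against 5.996, 6.01 and 6.29 in wildtypes d, e and f. Its highest values were those of mutant c and wildtype f, and the groups overlapped. With the filter on dim probes dropped, the limma adjusted p was 0.647 for Hand2 and 0.966 for Lhx9.

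Other genes of the limb bud were taken from fixed lists, with 1 probe per gene. The counts of this and every later list stand against 0.12% of all probes past the adjusted threshold and 12.2% at an unadjusted p under 0.05. Of 28 further genes of limb mesenchyme on the array, 26 were tested, and 0 passed an adjusted p of 0.05 in limma, with 5 at an unadjusted p under 0.05 (2 higher and 3 lower in mutants). Their median log2 fold change was 0.02. Lhx2, a LIM homeodomain factor that acts with Lhx9 in the limb, had 6.70, 6.88 and 6.91 in mutants a, b and c, against 6.19, 6.54 and 6.21 in wildtypes d, e and f. It was above background in 3 of 3 mutants and 1 of 3 wildtypes, so it entered the test through the mutant arrays and no fold is given. For the same reason its place among the 2 genes counted as higher, and its limma adjusted p of 0.192, are no support for a difference. Sall4, a zinc finger factor that acts with Tbx5 in the forelimb, differed by 0.33 on the log2 scale (SE 0.10, limma adjusted p = 0.271). Wnt5a, a ligand of limb outgrowth, had one of -0.46 (SE 0.16, limma adjusted p = 0.331), and the homeobox gene Msx1 one of -0.30 (SE 0.12, limma adjusted p = 0.363).

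The limb ectoderm and apical ridge list had 15 tested genes of 18 on the array, of which 0 passed in limma and 1, Fgf9, had an unadjusted p under 0.05. Its median log2 fold change was 0.02. Fgf9, a growth factor gene, differed by -0.20 on the log2 scale (SE 0.08, limma adjusted p = 0.357), and Trp63, a factor of stratified ectoderm, one of 0.20 (SE 0.10, limma adjusted p = 0.446).

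Hox genes, whose paralogue groups are read along the body axis, give another view of axial level. Of paralogues 9 to 13, expressed towards the tail, 12 of 13 on the array were tested. In limma 0 passed an adjusted p of 0.05 and 1 had an unadjusted p under 0.05, and the median log2 fold change was -0.00079. That gene was Hoxa9, with 9.10, 9.02 and 9.05 in mutants a, b and c, against 9.73, 9.41 and 9.54 in wildtypes d, e and f. All 3 mutants lay below all 3 wildtypes (log2 fold change -0.51, SE 0.09, limma adjusted p = 0.147). Of the 12 genes, 6 were higher and 6 lower in mutants. The next by p, Hoxb13 (0.21, SE 0.10, limma adjusted p = 0.422) and Hoxd11 (0.18, SE 0.09, limma adjusted p = 0.482), were higher. Of paralogues 4 to 8, 13 of 14 on the array were tested, again with 0 past the adjusted threshold in limma, 2 at an unadjusted p under 0.05 (Hoxb8 and Hoxd8), and a median of -0.04. Hoxb8 differed by -0.32 on the log2 scale (SE 0.09, limma adjusted p = 0.271) and Hoxd8 by -0.24 (SE 0.08, limma adjusted p = 0.324). Of the 13 genes, 5 were higher and 8 lower in mutants, and Hoxc4, the next by p, was higher (0.13, SE 0.07, limma adjusted p = 0.506).

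Markers of other tissues that make limb field genes were read beside them. Of 17 heart muscle genes on the array, 7 were above background on all 6 arrays, among them Myl7 and Tnni1. Another 8 were not above background on any array, among them the cardiac factor Nkx2-5 and the cardiac muscle genes Myh6 and Tnnt2. Of the 8 tested, 0 passed in limma and 0 had an unadjusted p under 0.05. Of these 5 were higher and 3 lower in mutants, with a median log2 fold change of 0.10, and the genes of smallest p were Myl4 (0.14), Myl7 (0.09), Smyd1 (-0.09) and Tnni1 (0.17). The summed deposited intensity of the 17 was 37.7 to 50.7 in mutants and 38.9 to 44.0 in wildtypes, in units of the array median. Pharyngeal arch markers had 13 tested genes, with 0 past the adjusted threshold in limma, 2 lower at an unadjusted p under 0.05 (Fgf3 and Gsc), and a median of -0.13. Their summed intensity was 42.0 to 44.4 in mutants and 45.0 to 47.6 in wildtypes. The part of these tissues in the values of Tbx2, Tbx3, Tbx5 or Pitx1 was not tested.

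The flank and visceral lateral plate list, tissue next to the limb fields, had 12 tested genes. In limma 0 passed the adjusted threshold and 2 were higher at an unadjusted p under 0.05, the mesenchymal factors Tcf21 (log2 fold change 0.22, SE 0.07) and Foxf2 (0.19, SE 0.07), and the median was 0.01. The summed intensity was 111.9 to 120.1 in mutants and 101.2 to 106.9 in wildtypes. Such sums weigh bright genes most. Tcf21 was the brightest of the list, with mean log2 intensities of 11.99 in mutants and 11.77 in wildtypes, and Osr1, the next, had 9.37 and 9.47. Of the 12 genes, 7 were higher and 5 lower in mutants, so the sums do not stand for the list as a whole. For sympathetic and neural crest markers, 0 of 10 tested genes passed in limma, 2 were lower at an unadjusted p under 0.05 (Sox10 and Erbb3), the median was 0.03, and the sums were 80.6 to 87.5 in mutants and 82.4 to 83.1 in wildtypes. For endoderm markers, 0 of 8 passed, 1 was lower at an unadjusted p under 0.05 (Cldn6), the median was -0.03, and the sums were 54.5 to 60.0 in mutants and 57.1 to 63.4 in wildtypes.

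Erythroid markers, from blood that circulates at this stage, were read in the same way. All 13 tested had positive log2 fold changes, as did 52.4% of all probes, with a median of 0.30. In limma 0 passed the adjusted threshold and 4 had an unadjusted p under 0.05, against 12.2% of all probes. Their summed intensity was 1723 to 1911 in mutants and 1367 to 1701 in wildtypes, and most of it came from 4 globin genes, with 11 saturated spots and Hbb-y flagged on mutant a. Summed apart, a split made after seeing the data, the globins gave 1584 to 1769 in mutants and 1286 to 1597 in wildtypes, which overlap. The log2 fold changes of Hbb-bh1 and Hba-x were 7.4e-05 and 0.0012, and they count among the positive values by sign only. Both probes lay near the top of the scale (percentile 99.6 of all probes by mean). There, saturated spots can hide a difference, and quantile normalization gives the brightest probes of each array nearly the same set of values. Hbb-bh1 had 15.15 in both mutant a and wildtype e, and 15.07 in both mutant c and wildtype d. The 2 fold changes therefore do not show that the globins were equal. The other 9 genes gave 118.3 to 142.6 in mutants and 80.4 to 115.0 in wildtypes, with log2 fold changes of 0.22 to 0.49. The part of blood in the values of the limb field genes was not tested.

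**Figure D4:**
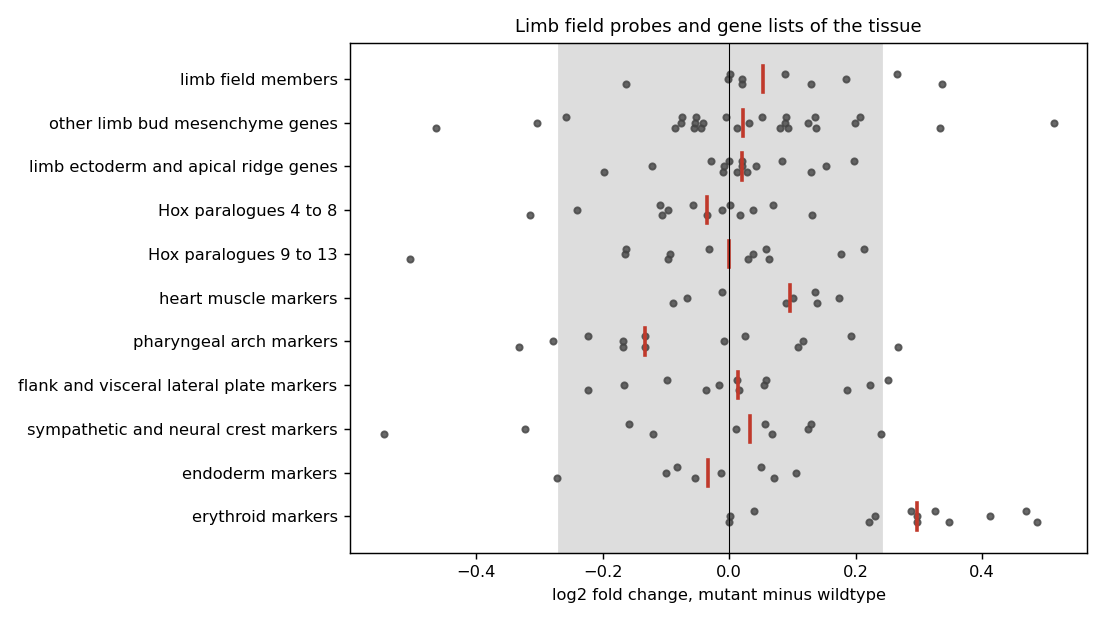
Log2 fold change, mutant minus wildtype (horizontal axis), of the 10 tested limb field probes (top) and of the tested genes of each list; red bars are medians and the grey band spans the 5th to 95th percentile of all tested probes (-0.27 to 0.24). The median is 0.05 for the limb field probes, near 0 for the other limb and Hox lists, and 0.30 for the erythroid markers.

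The pattern most like that of a limb field gene was sought for the Tbx3 probe GE1551668, which had the widest range of the members above background on all arrays (0.66 on the log2 scale, where the median probe tested had 0.32). Likeness was the root mean square difference of log2 values centred on their mean over the 6 samples, among 14786 named probes. The closest were Akirin2, a nuclear cofactor of transcription, at 0.04, Tbc1d23, a protein of vesicle traffic, at 0.04 and Zfpm1, a cofactor of GATA factors, at 0.05. All 3 were highest in mutant b, as the Tbx3 probe was, which follows from how they were chosen and is not a separate result.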

How the data were processed

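Spots were quantified with CodeLink Expression Analysis 4.1.0.29054, per the file headers, as linear intensity (spot mean and median local background). The deposited normalized intensity and the deposited series table were equal (largest difference 0). Here, background was corrected with normexp (offset 50) on all spots, control spots were dropped, spots marked contaminated, irregular or masked (339 to 508 on each array) became missing values, and quantile normalization on the log2 scale followed. Each of the 12 limb field spots was usable on all arrays. Probes above background on at least 3 of 6 arrays with 2 or more usable spots in each group, 21688 in all, were tested with limma 3.58.1 in R 4.3.3 (two-sided, p adjusted after Benjamini and Hochberg over all of them). Array number limits the precision.

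Probes were named through the platform annotation, RefSeq accessions or the array's description, 22519 of 34967 with 1 symbol. The members and lists were chosen with earlier results of these data known. Named genes were all members, Fkbp8 and sex-linked genes as checks, up to 4 genes of smallest p per list, Nkx2-5, Myh6, Tnnt2 and the globins (chosen after their values were seen), and the 3 genes most like the member of widest range. The brightest tested probe stood for a gene in lists. Alternatives concerned normalization, background, filter, variance model, spot flags and each array left out. Each array lay on its own slide, so no slide block could be fitted.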

Additional observations from a re-analysis of the deposited data

How the results depend on the processing

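No limb field gene passed an adjusted p of 0.05 under any alternative run (0 in all 16). Over these, the log2 fold change of Tbx5 was 0.05 to 0.18, of Prrx1 -0.23 to -0.11, of Prrx2 0.01 to 0.20, of Tbx2 0.12 to 0.28 and of the Tbx3 probes GE1551668 and GE1419526 0.22 to 0.43 and 0.18 to 0.41, each keeping its sign. The differences near 0 changed sign. Pitx1 had 0.056 with median centring, 5.8e-05 without background correction and 0.023 with the deposited table, and -0.065 (without mutant a) to 0.064 (without mutant b) with an array left out, 0.023 without wildtype e. Fgf10 had -0.049 without background correction, and -0.033 (without wildtype e) to 0.046 (without wildtype d) with an array left out, -0.017 without mutant c and -0.0075 without wildtype f. Tbx4 had -0.10 (without mutant a) to 0.10 (without mutant b), and -0.0021 without wildtype f. The Tbx3 probe GE1426190 had -0.0033 with cyclic loess, and -0.068 (without wildtype e) to 0.12 (without wildtype f) with an array left out, -0.061 without mutant c. The shift of Tbx5 relative to Tbx4 and Pitx1 was 0.02 (without mutant c) to 0.26 (without mutant a). The count of 26 probes over the array was 16 with median centring, 13 with floored subtracted values, 15 with the deposited table, 16 with the filter on all 6 arrays, and 11 (without mutant b, wildtype d or wildtype f) to 37 (without mutant a) with an array left out, 14 of these without wildtype e. The cause of these changes was not tested. No paired analysis was possible because the labels give mutants and wildtypes no shared replicate letter. Low signal over background limits Hand2, Lhx9 and Fgf10.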
